A study of Mus musculus with 8 samples.

Results

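Integrins are the cell surface receptors that hold cells to the extracellular matrix, and 9 genes of integrins and their matrix adhesion partners were followed in single mouse embryos at embryonic day E6.75. They were taken by gene symbol: the alpha subunits Itga3, Itga5, Itga6 and Itgav, the beta subunits Itgb1 and Itgb5, the matrix receptor dystroglycan (Dag1), and the signalling partners Ilk and Ptk2. All 9 were among the 21182 symbols of the expression table and all 9 were among the 10451 genes tested. RNA was sequenced from 4 embryos labelled Tet1/2/3 TKO, which stands for a triple knockout of the methylcytosine dioxygenases Tet1, Tet2 and Tet3, and from 4 Control embryos, whose description label is 123WT. Every embryo was whole, was lysed singly, and carried the C57BL/6 background at the same age. The labels name neither the alleles nor any Cre line, litter, sex or date.

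An integrin is a pair of 1 alpha and 1 beta subunit, and the alpha subunit largely sets which matrix protein is bound. ITGA3 and ITGA6 bind laminins, ITGA5 binds fibronectin, and ITGAV binds vitronectin, fibronectin and other proteins with an Arg-Gly-Asp sequence. Inside the cell the beta tail is linked to actin by talin, kindlins and the complex of integrin-linked kinase (ILK) with PINCH and parvin, while focal adhesion kinase (PTK2) carries the signal onward. Around gastrulation these receptors attach epiblast, visceral endoderm and parietal endoderm to their basement membranes, among them Reichert's membrane, and mouse embryos without Itgb1, Ilk or Dag1 die early.

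Estimated depth was 9.89 to 18.98 M reads in TKO-labelled and 12.37 to 16.44 M reads in Control embryos. At that depth the members would have from about 75 reads (Itga5 in its lowest embryo) to about 2518 reads (Itgb1 in its highest). The error of a single value from counting alone would then be up to about 11.5%, whereas the spread between embryos was mostly larger. These figures rest on the depth estimate and leave out any other technical error. Tet1 goes against a loss of its transcript, at 9.21 to 15.33 RPKM (read number scaled to 1 kilobase of gene length and to 1000000 reads) in TKO-labelled against 4.93 to 5.76 RPKM in Control embryos. Tet2 was at 0.598 to 0.993 RPKM in TKO-labelled and 0.444 to 0.850 RPKM in Control embryos, and Tet3 at 1.14 to 1.68 RPKM in TKO-labelled and 1.73 to 2.08 RPKM in Control embryos. One value per gene does not show whether targeted exons were missing, so the embryos are called TKO-labelled. TKO replicate 1 stood apart from the other TKO-labelled embryos in matrix genes and in Itga3, so results are also given without it. In whole embryos, fewer cells of a type and less RNA per cell cannot be told apart.

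None of the 9 members passed the threshold, an adjusted p under 0.05 by limma on log2(RPKM + 1) with Benjamini-Hochberg adjustment over all 10451 tested genes, against 0.00957% of all tested genes (1 gene, AI428936). At an unadjusted limma p under 0.05 stood 3 of the 9 members, Ilk, Itga5 and Itga6, all with higher values in TKO-labelled embryos, against 13.9% of tested genes with higher and 3.6% with lower values. Ilk and Itga5 were under it in all 13 alternatives, but Itga6 was at 0.05 or more in 8 of the 13, with limma p-values from 0.0131 to 0.118. The 4 TKO-labelled values lay above all 4 Control values for 2 of the 9 members, Ilk and Itga5, against 7.55% of all tested genes. The reverse was true of 0 members, against 1.86% of tested genes, and 9.41% of tested genes had no overlap in either direction. The direction was higher for 8 of the 9 members and lower for Itgav (Itgb1 was at -0.00081 after median-ratio scaling), against 66.5% of tested genes with a higher value, and the median log2 difference was 0.20 over the members and 0.09 over all tested genes. After median-ratio scaling of the embryos the members' median was 0.12 and that of all tested genes 0.02. The genes at an unadjusted limma p under 0.05 then numbered 839 higher and 673 lower, in place of 1448 higher and 376 lower.

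**Figure D1:**
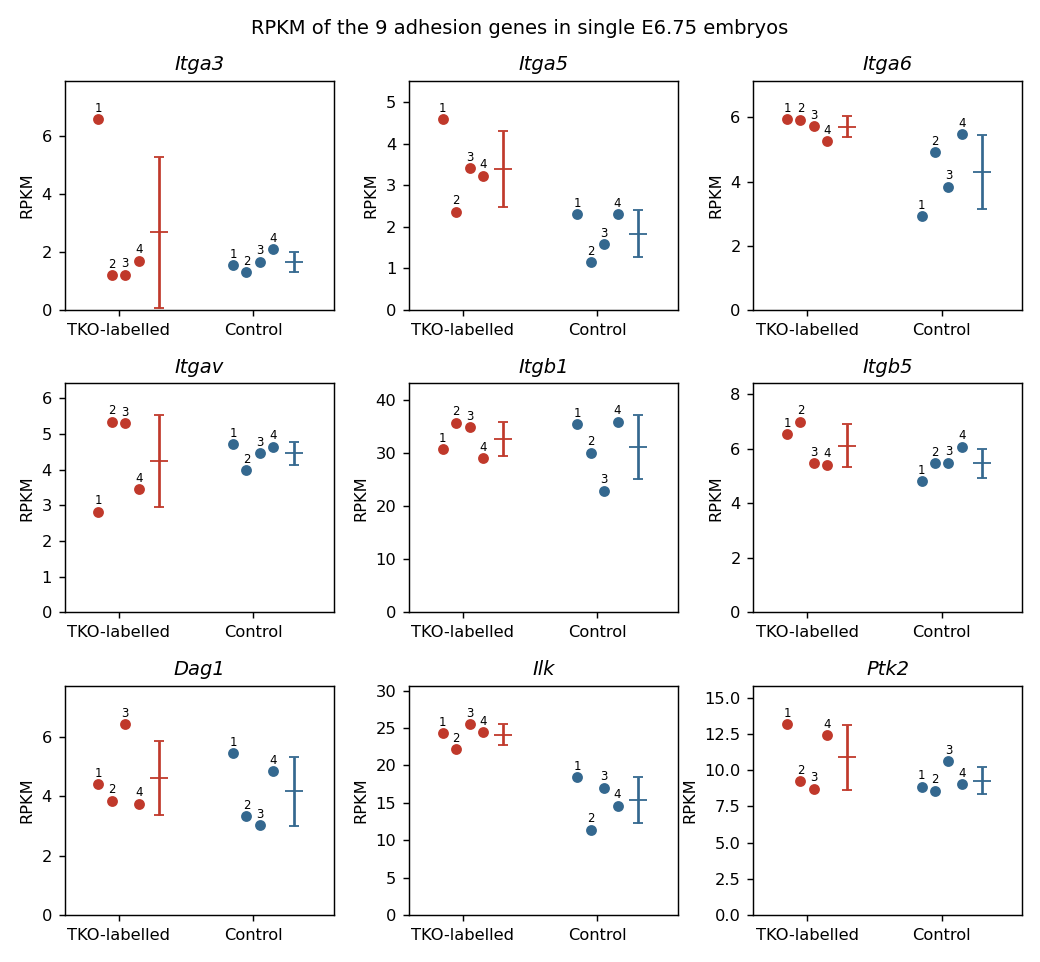
RPKM (vertical axes, starting at 0) of each member in the 4 TKO-labelled and 4 Control embryos. Points are single embryos with their replicate number, and the bar beside them is the mean with its SD. Ilk and Itga5 do not overlap between groups, and Itga3 is at 6.56 RPKM in TKO replicate 1 and at 2.11 RPKM or less in the other embryos.

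Ilk, the scaffold kinase-like protein at the beta tail, was the member whose groups lay farthest apart relative to their spread. It was at 24.3, 22.1, 25.5 and 24.5 RPKM in TKO-labelled replicates 1 to 4, against 18.5, 11.4, 17.0 and 14.6 RPKM in Control replicates 1 to 4. Every TKO-labelled embryo was above every Control embryo, and the TKO-labelled values were the closer together. The means were 24.1 ± 1.42 RPKM in TKO-labelled and 15.4 ± 3.09 RPKM in Control embryos (SD, n = 4 each), a ratio of 1.57. On the log2(RPKM + 1) scale they differed by 0.63 (SE 0.14, 95% interval 0.32 to 0.95), with a limma p of 0.0011 before and 0.136 after Benjamini-Hochberg adjustment. The exact two-sided permutation p was 0.0286, the smallest that 4 against 4 embryos can give. Without TKO replicate 1 the log2 difference was also 0.63 (limma adjusted p = 0.117). In GENCODE M21, which is of another build than the table, 81.7% of Ilk's exon bases lie over exons of Taf10, and 17.0% over exons of Rrp8, both on the opposite strand. In RefSeq the spans of Ilk and Taf10 share 32 bases and those of Ilk and Rrp8 share 796 bases. Whether counting used strand, and which gene models it used, is not given in the sources used here. How many reads of these genes, if any, were counted for Ilk is therefore not known. Taf10 was at 106 ± 28.0 RPKM in TKO-labelled and 96.3 ± 8.33 RPKM in Control embryos (limma adjusted p = 0.790), and Rrp8 at 27.8 ± 4.38 RPKM in TKO-labelled and 25.8 ± 2.67 RPKM in Control embryos (limma adjusted p = 0.734).

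The partners with which ILK forms its complex were not higher in every TKO-labelled embryo. Lims1, which encodes PINCH, was at 21.3 ± 1.29 RPKM in TKO-labelled and 19.9 ± 1.74 RPKM in Control embryos (log2 difference 0.09, limma adjusted p = 0.655). The parvin gene Parva was at 3.01 ± 0.96 RPKM in TKO-labelled and 4.00 ± 1.27 RPKM in Control embryos (-0.32, limma adjusted p = 0.465), and the parvin gene Parvb at 3.14 ± 0.90 RPKM in TKO-labelled and 2.76 ± 0.78 RPKM in Control embryos (0.14, limma adjusted p = 0.722). Rsu1, which binds PINCH, was at 15.1 ± 5.55 RPKM in TKO-labelled and 12.8 ± 1.60 RPKM in Control embryos (0.17, limma adjusted p = 0.690). The level of Ilk relative to Lims1 was 1.01 to 1.23 in TKO-labelled and 0.603 to 0.979 in Control embryos, with no overlap. Relative to Parva it was 6.30 to 12.9 in TKO-labelled and 2.95 to 5.23 in Control embryos, also with no overlap. Relative to Parvb it was 5.73 to 9.71 in TKO-labelled and 3.89 to 9.07 in Control embryos, where the groups overlapped. Relative to Rsu1 it was 1.06 to 2.15 in TKO-labelled and 0.931 to 1.70 in Control embryos, where they overlapped as well. The 4 partners were chosen by role after their values were seen, and the ratios are descriptions.

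Itga5, the alpha subunit of the fibronectin receptor, was at 4.59, 2.37, 3.41 and 3.23 RPKM in TKO-labelled replicates 1 to 4, against 2.30, 1.15, 1.59 and 2.31 RPKM in Control replicates 1 to 4. The groups did not overlap, but TKO replicate 2 (2.370 RPKM) was close to the highest Control embryo (2.309 RPKM). The means were 3.40 ± 0.92 RPKM in TKO-labelled and 1.84 ± 0.57 RPKM in Control embryos (SD, n = 4 each), a ratio of 1.85. That was 0.63 as a log2 difference (SE 0.19, 95% interval 0.21 to 1.05), with a limma p of 0.0070 before and 0.180 after Benjamini-Hochberg adjustment and an exact permutation p of 0.0286. Without TKO replicate 1 the difference was 0.51 (limma adjusted p = 0.212). Its share of the summed RPKM of all 18 alpha subunits was 13.4% to 18.8% in TKO-labelled and 7.44% to 12.9% in Control embryos, again without overlap. The share is made from the same Itga5 values and is no separate observation. Its ligand Fn1, fibronectin, was at 4.22 RPKM in TKO replicate 1 and at 5.74 to 9.26 RPKM in the other TKO-labelled embryos, against 4.57 to 4.69 RPKM in Control embryos (log2 difference 0.41, limma adjusted p = 0.291). The embryo with the most Itga5 was thus the one with the least Fn1. This describes 1 embryo, and a relation between the levels of these genes was not tested.

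The sequences before the start sites of these genes are shown because Ilk and Itga5 were the pair of members without overlap between groups, and because TET enzymes oxidise methylcytosine at CpG sites. RefSeq windows (GRCm38.p6) were matched for 7 of the 9 members, with 10 start sites in all, and each has 250 bases before the start. No window was matched for Itga6 or Ptk2. The median over all 32851 windows was 6 CpG (quartiles 2 and 16). CpG sites are in capitals, and each sequence runs 5′ to 3′ on the strand of its gene.
Ilk, chr7:105736340-105736589, plus strand: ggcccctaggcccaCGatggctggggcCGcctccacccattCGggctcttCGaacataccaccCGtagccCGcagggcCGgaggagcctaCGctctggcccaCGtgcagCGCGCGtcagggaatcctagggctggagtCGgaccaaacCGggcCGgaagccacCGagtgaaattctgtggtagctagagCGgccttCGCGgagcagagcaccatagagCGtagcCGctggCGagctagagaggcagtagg
Itga5, chr15:103366792-103367041, minus strand: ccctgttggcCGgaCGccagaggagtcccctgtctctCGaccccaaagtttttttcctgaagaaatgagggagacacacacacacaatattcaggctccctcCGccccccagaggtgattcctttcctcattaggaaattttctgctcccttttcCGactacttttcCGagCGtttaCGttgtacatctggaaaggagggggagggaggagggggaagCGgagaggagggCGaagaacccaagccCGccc
The Ilk window, the more upstream of its annotated starts, has 22 CpG, a number that 14.8% of all windows reach. The Itga5 window has 11 CpG, which 35.6% of all windows reach. The windows of Itgav, Itgb5, Itgb1, the upstream start of Dag1 and the upstream start of Itga3 hold 18, 18, 21, 21 and 22 CpG, and the other starts of Ilk, Dag1 and Itga3 hold 32, 36 and 5 CpG. The GC box GGGCGG, on either strand, was present in 8 of the 10 member windows, against 32.7% of all windows, with no match in the Ilk window shown or in that of Itgav. The TATA box letters TATAAA, on either strand, were present in 0 of the 10, against 12.4% of all windows. These are matches of letters and were not measured as methylation or binding. The windows of Ilk overlap each other, as do those of Dag1, so the 10 are not independent. The windows they are set against include genes that were not tested here, whereas every member was tested.

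**Figure D2:**
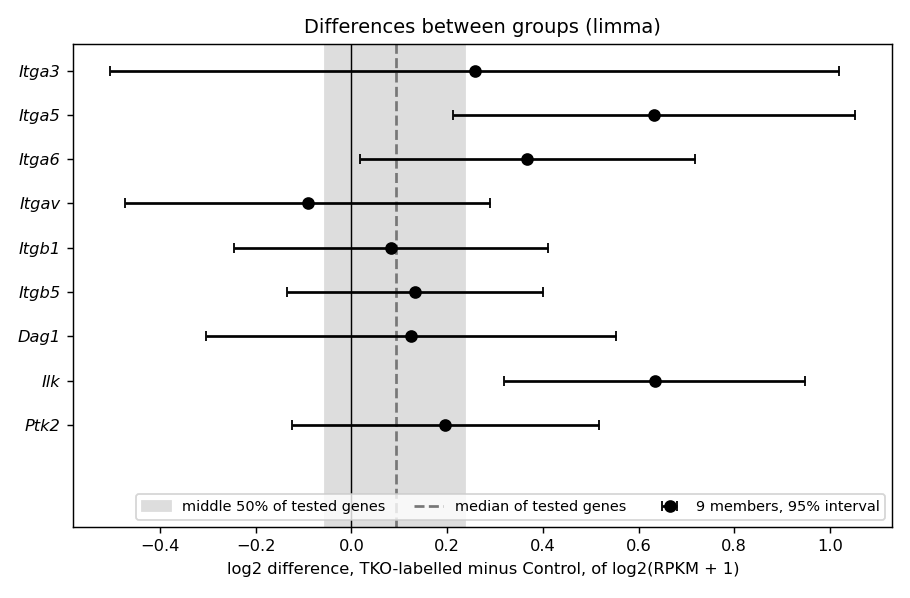
Log2 difference (horizontal axis, TKO-labelled minus Control on the log2(RPKM + 1) scale) of each member with its 95% interval from limma. The grey band holds the middle 50% of all tested genes and the dashed line is their median of 0.09. The intervals of Ilk, Itga5 and Itga6 lie above 0 before adjustment, and those of the other 6 members include 0.

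Itga6, an alpha subunit of laminin receptors, was at 5.94, 5.93, 5.73 and 5.26 RPKM in TKO-labelled replicates 1 to 4, against 2.92, 4.93, 3.85 and 5.49 RPKM in Control replicates 1 to 4. The groups overlapped through Control replicate 4 alone, and the TKO-labelled embryos varied little, with a coefficient of variation of 5.56%, against 26.6% in Control embryos. Its log2 difference was 0.37 (SE 0.16, 95% interval 0.02 to 0.72), with a limma p of 0.041 before and 0.264 after Benjamini-Hochberg adjustment. Without TKO replicate 1 it was 0.35, and without Control replicate 1, which had the lowest value, 0.23.

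Itga3, the other laminin-binding alpha subunit among the members, was at 6.56, 1.19, 1.22 and 1.70 RPKM in TKO-labelled replicates 1 to 4, against 1.55, 1.31, 1.67 and 2.11 RPKM in Control replicates 1 to 4. A single embryo, TKO replicate 1, was high, and the TKO-labelled replicates 2 and 3 were below every Control embryo. The log2 difference of 0.26 (SE 0.34, 95% interval -0.50 to 1.02, limma adjusted p = 0.723) was -0.16 without that embryo. Its share of the alpha sum was 25.6% in TKO replicate 1 and 6.13% to 10.8% in the other 7 embryos. Of the 9 members Itga3 had the largest SD over the 8 embryos on the log2(RPKM + 1) scale, at 0.59. The 5 tested genes with the most similar mean-centred log2(RPKM + 1) profile, by Euclidean distance over the 8 embryos, were Sf3a2 (0.393), Hormad1 (0.451), Nle1 (0.551), Lars2 (0.573) and Rgs11 (0.605). Sf3a2, a splicing factor subunit, was at 4.88 RPKM in TKO replicate 1 and at 0.841 to 1.55 RPKM in the other 7 embryos. Hormad1, a meiotic chromosome axis protein, was at 4.40 RPKM in TKO replicate 1 and at 0.419 to 1.35 RPKM in the other 7. Lars2, the mitochondrial leucyl-tRNA synthetase, was at 29.2 RPKM in TKO replicate 1 and at 5.76 to 9.71 RPKM in the other 7. Of the other members the nearest to Itga3 was Ptk2, at a distance of 1.20, with 742 tested genes closer.

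Dag1, a laminin and perlecan receptor whose precursor is cut into alpha and beta dystroglycan, was at 4.43, 3.86, 6.44 and 3.76 RPKM in TKO-labelled replicates 1 to 4, against 5.45, 3.34, 3.03 and 4.87 RPKM in Control replicates 1 to 4. The groups overlapped over most of their range. A log2 difference of 0.12 was measured (SE 0.19, 95% interval -0.30 to 0.55, limma adjusted p = 0.767), against -0.019 without TKO replicate 3. Among the other genes of the dystroglycan complex and of its glycosylation, 27 were in the table and 19 were tested. By limma 0 passed the threshold. At an unadjusted limma p under 0.05, 1 had higher values (Dpm2) and 1 lower values (Dpm3), against 13.9% and 3.6% of all tested genes. The median log2 difference of the 19 was 0.04, against 0.09 over all tested genes, and -0.033 after median-ratio scaling. Dpm2 and Dpm3 are subunits of the enzyme that makes dolichol phosphate mannose, the sugar donor for dystroglycan and for other glycoproteins. Dpm2 was at 51.0 ± 4.53 RPKM in TKO-labelled and 42.0 ± 3.62 RPKM in Control embryos, and Dpm3 at 31.2 ± 7.93 RPKM in TKO-labelled and 45.5 ± 6.20 RPKM in Control embryos. Dpm1, the catalytic subunit, was at 25.7 ± 1.88 RPKM in TKO-labelled and 26.3 ± 2.99 RPKM in Control embryos.

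Lama1, Lamb1, Lamc1, Col4a1 and Col4a2 encode laminin and collagen chains, ligands of these receptors that form basement membranes. They were at high levels in 3 of the 4 TKO-labelled embryos. The laminin genes Lama5 and Lamb2 were not: Lama5 was at 4.62 ± 1.38 RPKM in TKO-labelled and 4.18 ± 0.70 RPKM in Control embryos. Lamb2 was at 1.50 ± 0.23 RPKM in TKO-labelled and 1.78 ± 0.60 RPKM in Control embryos. Of the ligand genes, 24 were in the table and 12 were tested, with a median log2 difference of 0.94 against 0.09 over all tested genes. In the fit of all 8 embryos 0 passed the limma threshold and 7 of the 12 had an unadjusted p under 0.05, all higher, against 13.9% of tested genes higher. Without TKO replicate 1, Lama1, Lamb1, Lamc1, Col4a1, Col4a2 and Nid1 were past it, with log2 differences of 1.89 to 3.08, in a fit where 29 genes of all those tested were past it as higher and 7 as lower. That embryo had the lowest TKO-labelled value of each of the 6, so these calls follow from leaving it out and describe only how far the result depends on it. This list overlaps with genes already known from these data to differ, so its counts are no independent evidence. Lama1, Lamb1 and Lamc1, the chains of the embryonic laminin, summed to 19.6 RPKM in TKO replicate 1 and to 104, 113 and 71.6 RPKM in TKO replicates 2 to 4, against 10.8 to 34.0 RPKM in Control embryos. Over the summed RPKM of the laminin-binding members Itga3, Itga6 and Dag1 this was 1.16 in TKO replicate 1. It was 6.68 to 9.45 in the other TKO-labelled embryos, against 1.26 to 2.73 in Control embryos. The embryo with the lowest such ratio thus carried the TKO label, and so did the 3 with the highest. That lowest ratio depends on Itga3, which was at 6.56 RPKM in TKO replicate 1, since the lowest laminin sum (10.8 RPKM) was in a Control embryo. Itga7, another laminin receptor subunit, was not part of the sum of these members. How well each of them binds this laminin was not weighed. Col4a1 and Col4a2, the collagen IV chains, were at 53.7 ± 29.0 and 25.5 ± 14.1 RPKM in TKO-labelled against 17.3 ± 7.06 and 7.85 ± 2.38 RPKM in Control embryos, and Lamb1 was at 42.1 ± 22.3 RPKM in TKO-labelled against 13.2 ± 5.84 RPKM in Control embryos. In TKO replicate 1 Nid1, at 9.52 RPKM, was the only 1 of these 6 ligands above its Control range (4.69 to 8.83 RPKM). Ilk and Itga5 were also above theirs in that embryo, and a link between these levels was not tested.

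**Figure D3:**
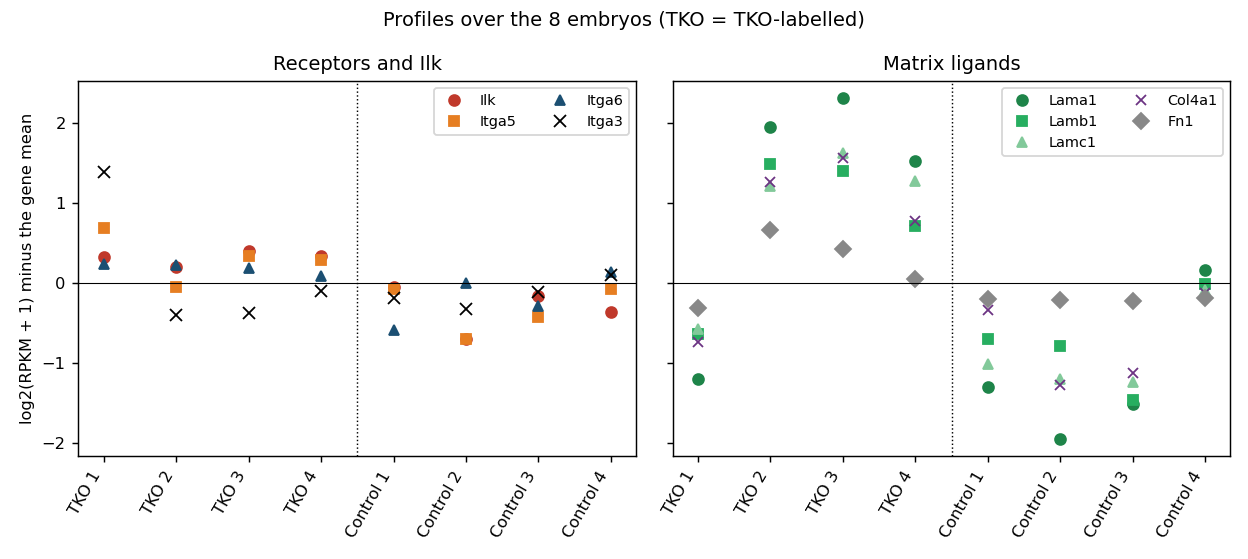
Log2(RPKM + 1) minus the mean of the gene (vertical axis) in the 8 embryos (horizontal axis, TKO-labelled left of the dotted line) for receptors and Ilk on the left and matrix ligands on the right. Lama1, Lamb1, Lamc1 and Col4a1 are high in TKO replicates 2 to 4 and near the Control embryos in TKO replicate 1. Ilk is above its mean in all 4 TKO-labelled embryos, and Itga3 is high in TKO replicate 1 alone.

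Itgav, the alpha subunit that pairs with Itgb5 and with Itgb1, was at 2.83, 5.35, 5.31 and 3.46 RPKM in TKO-labelled replicates 1 to 4, against 4.72, 4.00, 4.46 and 4.65 RPKM in Control replicates 1 to 4. The TKO-labelled embryos lay on both sides of the Control range, 2 above and 2 below it. The log2 difference was -0.09 (SE 0.17, 95% interval -0.47 to 0.29, limma adjusted p = 0.810), and 0.048 without TKO replicate 1. Its coefficient of variation was 30.4% in TKO-labelled and 7.29% in Control embryos, the reverse of the order seen for Itga6. Over the 9 members the coefficient of variation was higher among TKO-labelled embryos for 4 and higher among Control embryos for 5.

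Itgb1, the beta subunit shared by most of these alpha subunits, had the highest level of all members. It was at 30.8, 35.7, 34.8 and 29.0 RPKM in TKO-labelled replicates 1 to 4, against 35.3, 30.04, 22.9 and 35.8 RPKM in Control replicates 1 to 4, so each TKO-labelled value was inside the Control range. The log2 difference was 0.08 (SE 0.15, 95% interval -0.25 to 0.41, limma adjusted p = 0.798), and it was -0.00081 after median-ratio scaling. Itgb5, which pairs with Itgav only, was at 6.54, 6.99, 5.47 and 5.42 RPKM in TKO-labelled replicates 1 to 4, against 4.81, 5.48, 5.49 and 6.08 RPKM in Control replicates 1 to 4. Its TKO-labelled values reached higher in replicates 1 and 2 and otherwise overlapped. Its log2 difference was 0.13 (SE 0.12, 95% interval -0.13 to 0.40, limma adjusted p = 0.589). The intervals of both include log2 changes of up to about 0.4, so changes of that size are within the error here.

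Ptk2, focal adhesion kinase, was at 13.2, 9.25, 8.73 and 12.4 RPKM in TKO-labelled replicates 1 to 4, against 8.86, 8.60, 10.6 and 9.03 RPKM in Control replicates 1 to 4. TKO replicates 1 and 4 were above the Control range and TKO replicates 2 and 3 were inside it. The log2 difference was 0.20 (SE 0.15, 95% interval -0.12 to 0.52, limma adjusted p = 0.504). It was 0.11 without TKO replicate 1. Of the integrin activators and focal adhesion adaptors, 34 were in the table and 29 were tested, with 0 past the limma threshold and a median log2 difference of 0.12, against 0.09 over all tested genes. Of the 29, 1 had an unadjusted limma p under 0.05, the adaptor gene Crkl, against 13.9% of all tested genes with higher values. Crkl was at 1.84 ± 0.83 RPKM in TKO-labelled and 0.911 ± 0.366 RPKM in Control embryos (limma adjusted p = 0.241). The most abundant were the adaptor gene Crk, at 32.6 ± 3.38 RPKM in TKO-labelled and 27.7 ± 2.53 RPKM in Control embryos, the kindlin gene Fermt2, at 26.5 ± 2.94 RPKM in TKO-labelled and 24.9 ± 2.59 RPKM in Control embryos, and the actin cross-linker gene Actn4, at 24.5 ± 7.20 RPKM in TKO-labelled and 18.5 ± 4.43 RPKM in Control embryos, with limma adjusted p-values of 0.336, 0.737 and 0.409.

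Within the integrin family the members made up most of the signal. The table holds 18 alpha and 8 beta subunits, 6 of them members. Of the 20 others 19 averaged under 1 RPKM, the exception being the laminin receptor subunit Itga7. Itga7 was at 2.67 ± 1.11 RPKM in TKO-labelled and 3.08 ± 1.14 RPKM in Control embryos (log2 difference -0.16, limma adjusted p = 0.747), a level above those of the members Itga3 and Itga5 when averaged over all 8 embryos. The next were Itgb3, at 0.414 ± 0.447 RPKM in TKO-labelled and 0.642 ± 0.362 RPKM in Control embryos, and the collagen receptor subunit Itga1, at 0.274 ± 0.052 RPKM in TKO-labelled and 0.292 ± 0.089 RPKM in Control embryos. The 4 member alpha subunits made up 77.8% to 83.7% of the alpha sum in TKO-labelled and 64.5% to 74.5% in Control embryos, without overlap. Itgb1 made up 80.2% to 82.9% of the beta sum in TKO-labelled and 75.3% to 86.3% in Control embryos, and Itgb5 13.0% to 17.1% in TKO-labelled and 11.8% to 18.05% in Control embryos. The beta sum was 1.495 to 2.44 times the alpha sum in TKO-labelled and 1.82 to 2.35 times in Control embryos.

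**Figure D4:**
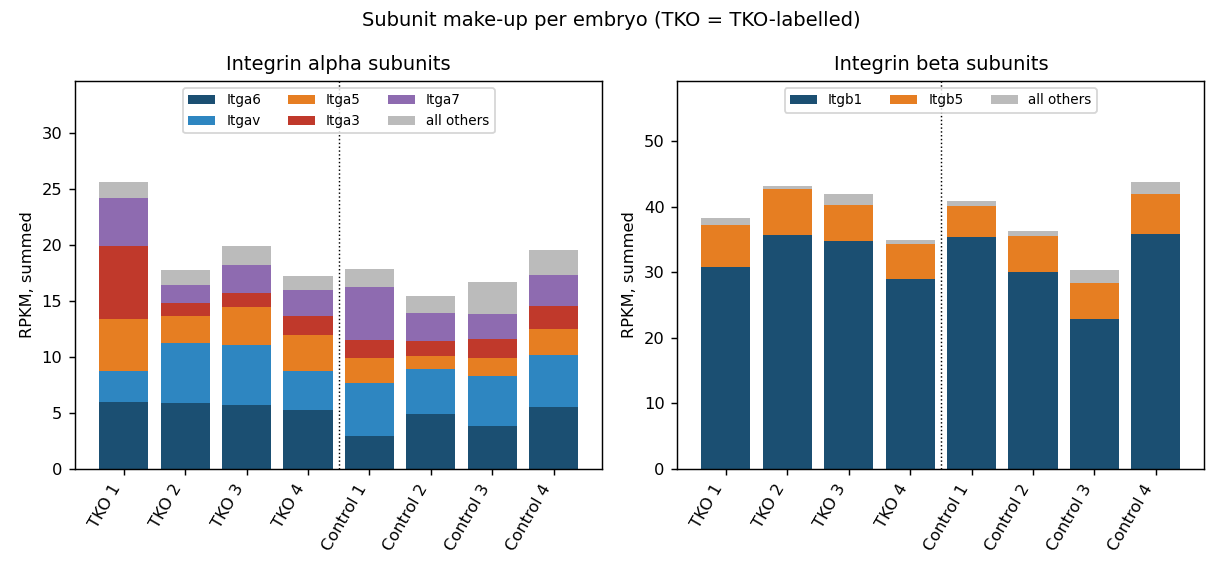
Summed RPKM (vertical axes, starting at 0) of the integrin alpha subunits on the left and beta subunits on the right in each of the 8 embryos, TKO-labelled left of the dotted line. Colours are subunits and grey is the sum of all others. Itgb1 is the bulk of the beta sum in each embryo, and the Itga3 part of the alpha sum is widest in TKO replicate 1.

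Averaged over the 8 embryos the members ranked Itgb1 (31.8 RPKM), Ilk (19.7), Ptk2 (10.1), Itgb5 (5.79), Itga6 (5.01), Dag1 (4.40), Itgav (4.35), Itga5 (2.62) and Itga3 (2.16). The order Itgb1 over Ilk, Ilk over Ptk2 and Ptk2 over Itgb5 held in all 8 embryos. Neighbours below that exchanged places: Itgb5 was above Itga6 in 7 embryos, Itga6 above Dag1 in 6, and Dag1 above Itgav in 5. Itgav was above Itga5 in 7 embryos, the exception being TKO replicate 1, and Itga5 above Itga3 in 5. The levels of Itgb5, Itga6, Dag1 and Itgav therefore do not form a fixed order. Among all tested genes by mean RPKM, Itgb1 stood at the percentile 79.9 and Itga3 at 16.1.

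Lateral partners, which sit beside integrins in the membrane, were 10 in the table and 9 tested, with 0 past the limma threshold and a median log2 difference of 0.26 against 0.09 over all tested genes. Their direction was higher in 8 of 9, against 66.5% of all tested genes. The tetraspanin genes Cd63 and Cd9 were at 432 ± 96.5 and 102 ± 20.03 RPKM in TKO-labelled against 360 ± 139 and 79.2 ± 16.5 RPKM in Control embryos, and Bsg, basigin, at 208 ± 26.2 RPKM in TKO-labelled against 183 ± 47.1 RPKM in Control embryos (limma adjusted p-values 0.526, 0.291 and 0.574). Plaur, the urokinase receptor, was the only 1 of the 9 at an unadjusted limma p under 0.05, against 13.9% of all tested genes with higher values. It was at 10.4 ± 3.99 RPKM in TKO-labelled and 5.87 ± 2.44 RPKM in Control embryos (limma adjusted p = 0.225). Over the 5 lists of related genes together, 0 of 70 tested genes passed in the fit of all 8 embryos, 10 had higher and 1 had lower values at an unadjusted p under 0.05, against 13.9% and 3.6% of all tested genes, and 2 were higher without overlap between groups, against 7.55%. These pooled shares are near or under those over all tested genes, but the lists were unlike. Of the 10 higher genes, 7 were among the 12 tested matrix ligands.

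**Figure D5:**
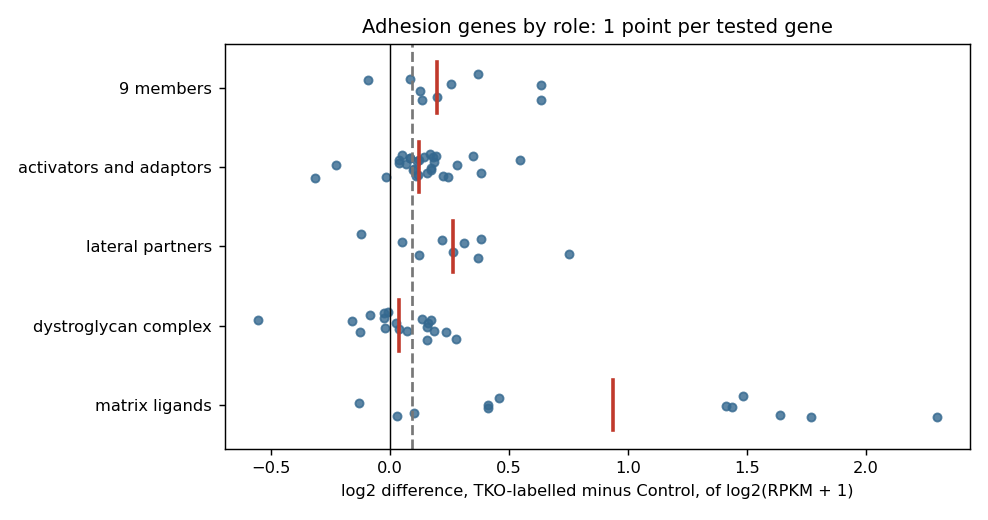
Log2 difference (horizontal axis, TKO-labelled minus Control on the log2(RPKM + 1) scale) of every tested gene, 1 point per gene, by role. Red bars are list medians, which are 0.20 for the members, 0.12 for adaptors, 0.26 for lateral partners, 0.04 for the dystroglycan complex and 0.94 for matrix ligands, and the dashed line is the median of 0.09 over all tested genes. Part of the ligands lie above a log2 difference of 1.

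Tissue markers were summed in each embryo beside these values. Of the parietal endoderm markers, 15 were in the table, 13 were tested and 11 had higher mean log2 values in TKO-labelled embryos, against 66.5% of all tested genes. Such values were higher for 11 of 15 visceral endoderm, 8 of 10 epiblast, 8 of 9 streak, 3 of 8 extraembryonic ectoderm and trophoblast, 0 of 6 decidual and 1 of 3 blood markers tested. The median log2 differences were 0.70 for parietal endoderm, 0.31 for visceral endoderm, 0.40 for epiblast and -0.61 for decidual markers. The parietal endoderm markers summed to 548 RPKM in TKO replicate 1 and to 786 to 1099 RPKM in the other TKO-labelled embryos, against 412 to 624 RPKM in Control embryos. Sparc averaged 209 ± 74.2 RPKM in TKO-labelled and 89.6 ± 25.4 RPKM in Control embryos. The keratin genes Krt8 and Krt18 averaged 109 ± 28.5 and 187 ± 31.8 RPKM in TKO-labelled and 98.5 ± 15.1 and 182 ± 36.4 RPKM in Control embryos. In TKO replicate 1, where Ilk and Itga5 were above their Control ranges, the parietal endoderm sum was inside its Control range and the epiblast sum above its own. Visceral endoderm markers summed to 1715 to 2427 RPKM in TKO-labelled and 1066 to 3230 RPKM in Control embryos, led by Apoc2, Apoa1 and Apom. Epiblast markers summed to 618 to 1193 RPKM in TKO-labelled and 565 to 820 RPKM in Control embryos, led by Dnmt3b, Pim2 and Utf1, and were highest in TKO replicate 1. Streak markers, led by Eomes, Mixl1 and Fgf8, summed to 82.7 to 210 RPKM in TKO-labelled and 75.9 to 98.8 RPKM in Control embryos, and extraembryonic ectoderm and trophoblast markers, which include Elf5 and Prl3d1, to 70.8 to 219 RPKM in TKO-labelled and 112 to 162 RPKM in Control embryos. Maternal decidual markers, led by Prl8a2, Cryab and Des, summed to 30.3 to 436 RPKM in TKO-labelled and 10.2 to 533 RPKM in Control embryos. Blood markers, led by S100a8, Cd68 and S100a9, summed to 1.89 to 24.9 RPKM in TKO-labelled and 1.29 to 32.2 RPKM in Control embryos. Markers at 0 in at least 1 embryo were Mesp1, Tpbpa, Lum, Ptprc, Pf4, Lyz2, S100a8, S100a9 and Ngp, the last in 7 of 8. Over the 7 marker lists 0 of 64 tested genes passed. Without TKO replicate 1, which had the lowest TKO-labelled values of both, Sparc and Fst were past the threshold, which follows from leaving it out. The part of tissue make-up in the differences of Ilk, Itga5 and Itga6 was not tested.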

How the data were processed

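RNA sequencing of 8 single embryos, 4 TKO-labelled and 4 Control, was analysed from 1 deposited table with 1 value per gene symbol and embryo. Per the labels' protocols, cDNA was made with a SMARTer low-input kit and libraries with Nextera XT for Illumina sequencing. The deposited values are RPKM computed by the authors, as the table's own name states. Per the submitters' processing notes, HTSeq was used with genome mm9. Which aligner, gene models and read total were used, and whether strand was, is not given in the sources used here.

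Genes with at least 1 RPKM in at least 4 embryos were tested with limma 3.58.1 (R 4.3.3) on log2(RPKM + 1), two-sided, without a block and with a mean-variance trend in eBayes, with Benjamini-Hochberg adjustment over all tested genes. This scale understates the change of low genes. The fit was tested on simulated data. The labels call the samples single embryos and name no litter. The p-values set the group difference against the spread between embryos within groups, and shared litters could not be taken into account. Depth was estimated as the read total at which the largest number of low values of genes with 1 transcript (GENCODE M21 lengths) came out at 1 to 3 whole reads, within 2%. This held for 31.0% to 38.3% of those values, too few to recover read numbers, and count models were therefore not applied. Sequences came from RefSeq (GRCm38.p6), another build than mm9, so no positions of the measured gene models are given.

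Members and lists were chosen with earlier results of these data known. Named genes were the members, Tet1 to Tet3, the 3 most abundant genes of each list and any past the threshold, and the 5 nearest profiles to the member with the largest SD. Lims1, Parva, Parvb, Rsu1, Fn1, Lama1, Lama5, Lamb2, Lamc1, Nid1, Crkl, Plaur, Fst, Taf10, Rrp8 and AI428936 were added after their values were seen, as were the markers named for being at 0. One gene that the rule names is not reported here. Alternatives were a pseudocount of 0.1, no filter, median-ratio scaling, no variance trend, the replicate number as a block, and each embryo left out.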

Additional observations from a re-analysis of the deposited data

Results flagged for a closer look

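Of 130 groups of 4 values checked, 2 for each of 65 of the named genes, 12 held an embryo far from the other 3 of its group (a gap to the nearest above Dixon's 95% critical value). Chance alone flags about 1 in 20 such groups. Among the 18 groups of the members there was 1, Itga3 in TKO replicate 1 at 6.562 RPKM, with the other TKO-labelled embryos at 1.19 to 1.70 RPKM. The same embryo was apart for Sf3a2 (4.876 RPKM), Lars2 (29.185 RPKM) and Rgs11 (4.27 RPKM), which were picked for their likeness to Itga3.

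TKO replicate 3 was apart for Itgb3 (1.079 RPKM), for the trophoblast giant cell gene Prl3d1 (108.006 RPKM), for the decidual prolactin gene Prl8a2 (354.35 RPKM) and for the neutrophil gene S100a8 (18.707 RPKM). TKO replicate 2 was apart for the streak gene Mixl1 (48.318 RPKM). Among Control embryos, replicate 2 was low for Tet2 (0.444 RPKM), replicate 3 high for Lims1 (22.491 RPKM) and replicate 4 high for Lamc1 (6.44 RPKM).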

How the results depend on the processing

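In all 13 alternatives 0 of the 9 members passed the threshold, and the members' median log2 difference ranged from 0.11 to 0.29. The differences of Ilk (0.51 to 0.72, limma adjusted p 0.115 to 0.377), Itga5 (0.51 to 0.87, adjusted p 0.124 to 0.414), Itga6, Itgb5 and Ptk2 kept their direction in each. The other members changed sign in 1 or 2 alternatives: Itga3 (-0.16) and Itgav (0.048) without TKO replicate 1, Dag1 (-0.019) without TKO replicate 3, and Itgb1 without Control replicate 3 (-0.051) and after median-ratio scaling (-0.00081). With 1 embryo left out they ranged from -0.16 to 0.43 for Itga3, -0.20 to 0.048 for Itgav, -0.051 to 0.16 for Itgb1 and -0.019 to 0.24 for Dag1. The cause was not tested. Across all genes the number past the threshold with higher values was 1 with all embryos, 0 when low genes were kept, 0 with the replicate block, and 0 to 29 with 1 embryo left out; with lower values it was 0 to 7. The counts of 29 and 7 came without TKO replicate 1, without which 6 matrix ligands and 2 parietal endoderm markers passed, in place of 0 and 0. At an unadjusted p under 0.05, 1448 genes were higher and 376 lower; these numbers were 1730 and 786 with low genes kept, 839 and 673 after median-ratio scaling, and 836 and 239 without TKO replicate 4. The ligands' median of 0.94 was 0.063 with low genes kept, since ligands near 0 RPKM then enter it. The replicate numbers share no litter or day in the labels, so same-numbered embryos were not taken as pairs. Their deviations correlated at -0.0045, 0.40, 0.26 and -0.021, and those of differently numbered embryos at -0.46 to 0.20. The values 0.40 and 0.26 were thus the highest, and 4 embryos per group cannot decide whether the numbers mark pairs. With the block 0 members passed. Depth limits Itga3 and Itga5 most, whose lowest values rest on an estimated 81 and 75 reads.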
